A study of Mus musculus with 9 samples.

Results

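The 10 genes described here handle iron and zinc in the liver: Hamp, Hamp2, Tfr2, Tfrc, Slc40a1, Fth1, Ftl1, Slc39a14, Mt1 and Mt2. They were chosen by gene name from a deposited table of 56748 genes, and all 10 were found in it. The study sequenced polyadenylated RNA from whole liver of male C57BL/6J mice. All mice were placed on a high-fat diet at 8 weeks of age, stayed on it for 20 weeks and were 28 weeks old. During the last 4 weeks, 5 mice received formoterol, an agonist of the beta-2 adrenergic receptor, at 1 mg/kg by daily intraperitoneal injection, and 4 mice received the DMSO vehicle. No mice on normal chow and no untreated mice enter the comparison, so every value below belongs to a liver on a high-fat diet.

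Iron leaves cells through ferroportin, the product of Slc40a1, and hepcidin, a peptide that hepatocytes secrete, removes ferroportin from the cell surface. Hepatocytes set hepcidin transcription through bone morphogenetic protein (BMP) signalling, which reads iron stores with the help of HFE, hemojuvelin and transferrin receptor 2, and through interleukin-6 and STAT3 in inflammation. Inside the cell iron is kept in ferritin, while zinc enters through Slc39 importers, is bound by metallothioneins and switches on the metallothionein genes through the sensor MTF-1.

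Promoter sequences are shown first because the members include a pair of hepcidin genes and a pair of metallothionein genes whose values differed widely between libraries. They were taken from RefSeq on the build GRCm38.p6, where 8 of the 10 members had an entry and Slc40a1 and Slc39a14 had none. The Hamp stretch is chr7:30944040-30944179 on the minus strand, from position -150 to -11 relative to the RefSeq start, and the Hamp2 stretch is chr7:30924192-30924331, also on the minus strand and over the same distances. Capitals mark the letters GGCGCC, the core of the BMP response element, and the STAT palindrome TTCNNNGAA.
Hamp: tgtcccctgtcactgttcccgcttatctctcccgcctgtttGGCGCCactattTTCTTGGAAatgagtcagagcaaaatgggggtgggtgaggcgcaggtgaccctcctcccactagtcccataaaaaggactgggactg
Hamp2: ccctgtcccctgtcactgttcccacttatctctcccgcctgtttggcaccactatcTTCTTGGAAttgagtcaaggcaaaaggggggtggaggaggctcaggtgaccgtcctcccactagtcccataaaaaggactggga
Over the 250 bases before the start, 227 of 253 aligned columns were identical between these promoters (89.7%). Both held the STAT palindrome, at position -97 in Hamp and -94 in Hamp2. GGCGCC stood at -109 in Hamp and had no match in Hamp2, whose aligned bases carried the substitution G4A, counted from 1 at the first base of the Hamp core. Of 32851 mouse promoters of the same length, 9.59% held GGCGCC and 7.02% held the STAT palindrome on either strand.

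The metal response element, to which MTF-1 binds, has a core of 7 letters, searched as TGCACNC or TGCGCNC on both strands. Mt1 held 1 match in its 250 bases and Mt2 held 3, and 21.4% of all promoters held at least 1. The Mt1 match starts at -23 and is shown in capitals with its neighbouring bases, chr8:94179058-94179080 on the plus strand of GRCm38.p6.
Mt1: tcccgctgTGCACACtggcgctc
Of the other members, Tfrc held GGCGCC and 2 overlapping matches of the metal response element core in 1 of its 2 promoter entries. These matches describe letters in a window and were not measured as binding sites. The window depends on the RefSeq start, and bases outside it were not searched. The numbers of matches are therefore not totals for a gene.

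Expression was measured as whole read counts per gene, with 12336665 to 20339665 counts per library and no difference in total between the groups (2-sided exact permutation test, p = 0.81, n = 5 and 4). Libraries are named by the code in their column name (M56, M58, M59 and M60 for vehicle, M46 to M50 for formoterol), and levels are CPM, the read count of a gene divided by the size of its library, which was scaled by the trimmed mean of M values (TMM). Genes of the mitochondrial genome took between 16.38% (M46) and 38.59% (M50) of the counts. The hepatocyte markers were high in every library, with albumin (Alb) at 63462 CPM or more. Summed over 6 hepatocyte markers the level was 86559 to 99021 CPM with vehicle and 102160 to 138950 CPM with formoterol, so the groups did not overlap. Alb, at 63462 to 105060 CPM over the 9 libraries, made up most of that sum. Of these 6 genes, 2 had negative log2 fold changes and 2 had an unadjusted p under 0.05.

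None of the 10 members separated the groups. In edgeR's quasi-likelihood test across all genes, 0 of the 9 members with enough counts passed an adjusted p of 0.05, against 0 of 13042 genes tested (0%), and the smallest adjusted p of any gene in edgeR was 0.136. At an unadjusted p under 0.05 there were 0 of 9 members, against 14.6% of all genes (9.03% higher with formoterol and 5.53% lower). The CPM ranges of vehicle and formoterol overlapped for all 10 members, while they did not overlap for 4.84% of the genes tested. DESeq2 called 306 genes and limma-voom 0, and neither called a member, although DESeq2 gave Mt1 no adjusted p. limma-voom with sample quality weights called 1374 genes (10.5%) and 1 member, Hamp2.

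**Figure D1:**
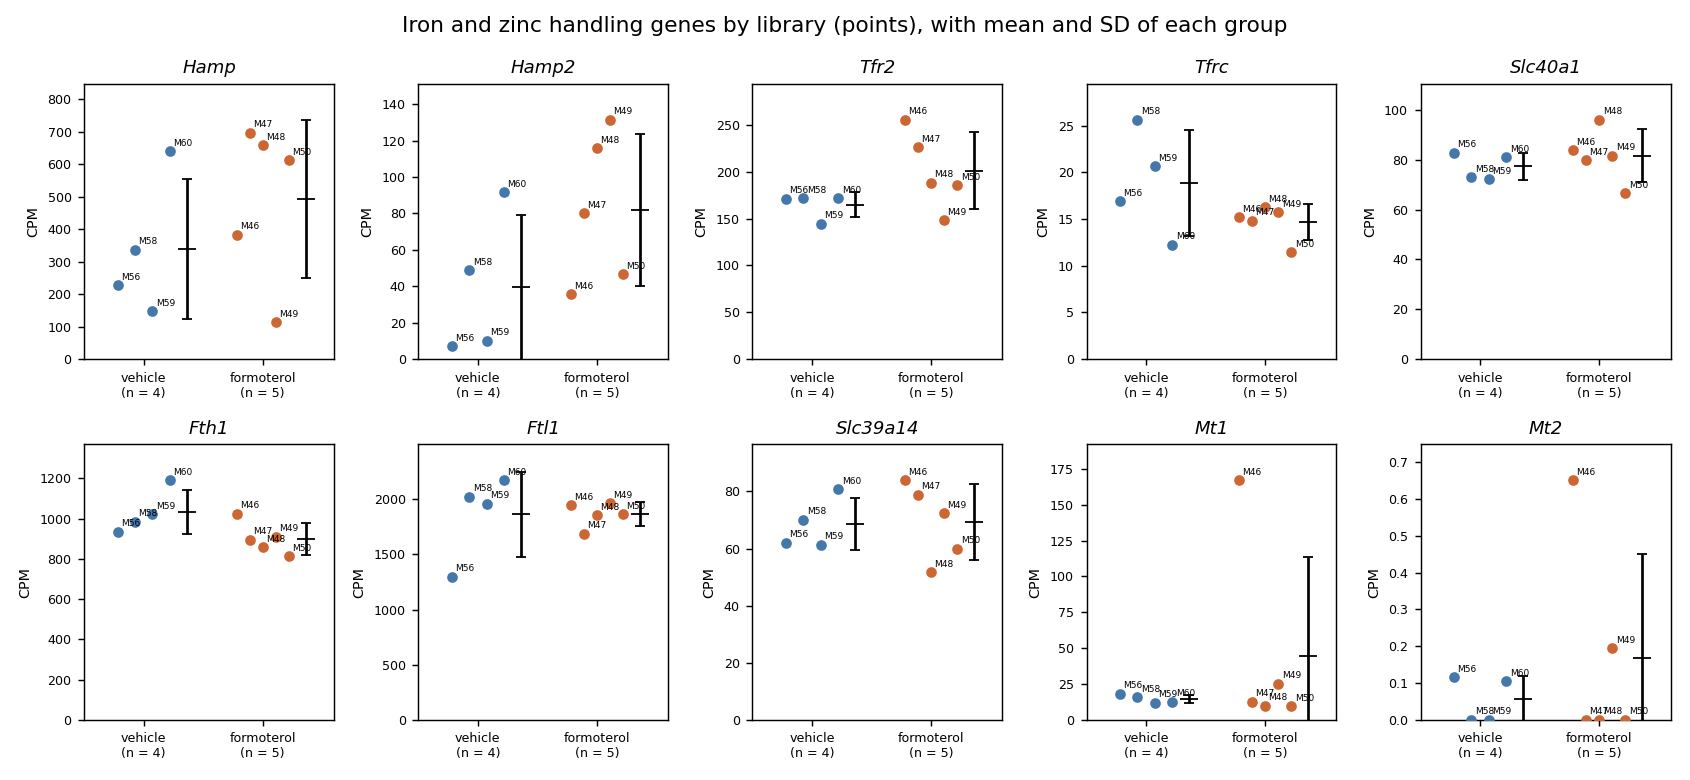
Library-scaled read counts (CPM) of the 10 members in each library, on linear axes that start at 0; points are libraries, and the bar beside them is the mean and SD of 4 vehicle or 5 formoterol libraries (bars that would pass below 0 end at the axis). The groups overlap in every panel, M46 stands alone for Mt1 at 167 CPM, and Hamp and Hamp2 spread widely within both groups.

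Hamp encodes hepcidin itself (ENSMUSG00000050440, chr7:30641793-30643457 on mm39, the build of the counts). In vehicle livers its level was 227 CPM in M56, 337 in M58, 147 in M59 and 639 in M60, a mean of 338 ± 215.5 (SD, n = 4). In formoterol livers it was 383 CPM in M46, 697 in M47, 658 in M48, 114 in M49 and 612 in M50, a mean of 493 ± 244 (SD, n = 5). The lowest and the highest library both had received formoterol, and the levels spanned 6.12-fold over all 9 livers. Formoterol against vehicle, the log2 fold change was 0.55 with a standard error of 0.57 (edgeR adjusted p = 0.71). It ranged from 0.30 to 1.06 when 1 library at a time was left out, the highest value being the one without M60, and was 1.14 in limma-voom with sample quality weights (adjusted p = 0.065). Hepcidin is made by hepatocytes. The sum of their markers, mostly Alb, was higher in every formoterol library, and the part of that in these values was not tested. In whole tissue, more cells of a type and more RNA per cell cannot be told apart.

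Hamp2, a second hepcidin gene of mice, lies near Hamp (ENSMUSG00000056978, chr7:30621797-30624106 on mm39). It was at 7.05 CPM in M56, 48.9 in M58, 10.01 in M59 and 91.7 in M60, a mean of 39.4 ± 39.7 (SD, n = 4). With formoterol it was at 35.6 CPM in M46, 80.1 in M47, 116 in M48, 132 in M49 and 46.8 in M50, a mean of 82.0 ± 41.8 (SD, n = 5). The 2 lowest libraries, M56 and M59, were vehicle, but the other 2 vehicle libraries lay inside the formoterol range. Hamp2 had a log2 fold change of 1.06 ± 0.82 (SE; edgeR adjusted p = 0.61), which lay between 0.71 without M56 and 1.92 without M60. With limma-voom and sample quality weights, which give less weight to libraries with more scatter, it was 1.96 with an adjusted p of 0.037.

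Hamp and Hamp2 did not keep a fixed proportion. Hamp2 made up 3.01% of the counts of both genes in M56, 12.7% in M58, 6.36% in M59 and 12.6% in M60. With formoterol it made up 8.52% in M46, 10.3% in M47, 14.97% in M48 and 7.10% in M50, but 53.6% in M49. M49 thus held the lowest Hamp level and the highest Hamp2 level of the 9 livers. The log2 ratio of Hamp2 to Hamp was -3.62 ± 1.06 (SD, n = 4) with vehicle and -2.51 ± 1.58 (SD, n = 5) with formoterol. That difference of 1.11 did not pass the threshold (exact permutation p = 0.317, 0.634 after Benjamini-Hochberg adjustment over 4 ratios), and without M49 it was 0.43. Across libraries the log2 levels of the 2 genes correlated with a Pearson r of 0.41 (n = 9, in shared libraries). Their annotated transcripts are 93% identical in alignment, with an unbroken identical stretch of 87 bases, so reads may have been split between them or dropped, and the split between the 2 genes is uncertain.

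**Figure D2:**
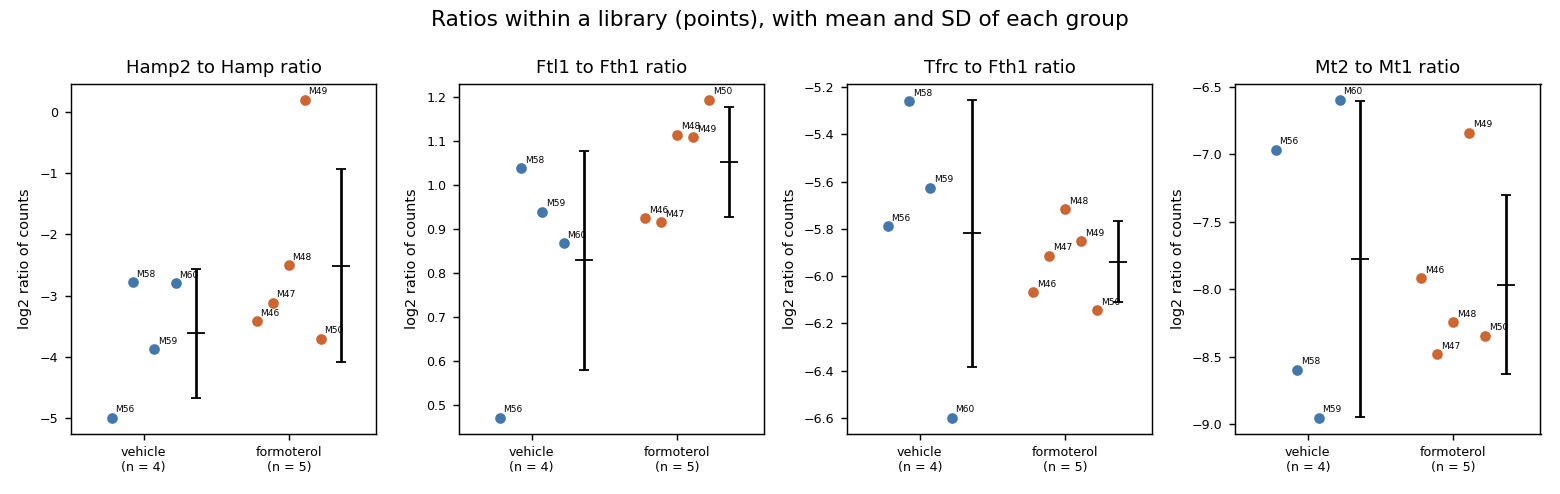
Log2 ratios of counts within a library for 4 gene pairs; points are libraries, bars are the mean and SD of 4 vehicle and 5 formoterol libraries, and each panel has its own axis. M49 lies apart for Hamp2 to Hamp at 0.21, M56 is lowest for Ftl1 to Fth1 at 0.47, and the groups overlap in all 4 panels.

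Among the receptors for transferrin, the iron carrier of blood, Tfr2 (ENSMUSG00000029716, chr5:137568102-137585743 on mm39) acts in hepatocytes as the sensor of iron-loaded transferrin upstream of hepcidin. Tfr2 was at 171 CPM in M56, 172 in M58, 144 in M59 and 172 in M60 (mean 165 ± 13.5, SD, n = 4). With formoterol it was at 256 CPM in M46, 226 in M47, 188 in M48, 148 in M49 and 186 in M50 (mean 200.9 ± 41.2, SD, n = 5). Of the 5 formoterol libraries, 4 lay above all vehicle libraries, and M49 lay among them. The log2 fold change of Tfr2 was 0.29 ± 0.17 (SE; edgeR adjusted p = 0.45). Leaving out M49 gave 0.38, with an edgeR adjusted p of 0.15 in a fit where 5.51% of all genes passed, and leaving out M46 gave 0.18. Over the 9 libraries the log2 level of Tfr2 correlated with that of Hamp at a Pearson r of 0.63 (libraries shared by both genes).

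Tfrc (ENSMUSG00000022797, chr16:32427738-32451612 on mm39) encodes transferrin receptor 1, which takes up iron-loaded transferrin and whose messenger is stabilised by iron regulatory proteins when cellular iron is low. The vehicle livers held 16.9 CPM in M56, 25.7 in M58, 20.7 in M59 and 12.2 in M60 (mean 18.9 ± 5.69, SD, n = 4). The formoterol livers held 15.2 CPM in M46, 14.8 in M47, 16.3 in M48, 15.7 in M49 and 11.5 in M50 (mean 14.7 ± 1.89, SD, n = 5). Of the 4 vehicle livers, 3 lay above all formoterol livers, and M60 lay near the lowest. Tfrc had a log2 fold change of -0.36 ± 0.20 (SE; edgeR adjusted p = 0.44). It moved to -0.17 without M58 and to -0.52 without M60.

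Slc40a1 (ENSMUSG00000025993, chr1:45947228-45965683 on mm39) encodes ferroportin, the iron exporter of hepatocytes and macrophages. It was among the steadiest members, at 82.9 CPM in M56, 73.2 in M58, 72.3 in M59 and 81.1 in M60, and at 84.0 in M46, 79.9 in M47, 96.2 in M48, 81.7 in M49 and 66.6 in M50. The means were 77.4 ± 5.45 (SD, n = 4) with vehicle and 81.7 ± 10.6 (SD, n = 5) with formoterol, and the highest and the lowest value both came from formoterol livers. Its log2 fold change was 0.078 ± 0.14 (SE; edgeR adjusted p = 0.84), and the sign turned to -0.075 when libraries were scaled by their totals. Kupffer cells, the resident macrophages that recycle iron, also make ferroportin. The summed level of 8 Kupffer cell markers was 37.5 to 79.2 CPM with vehicle and 41.3 to 90.3 CPM with formoterol, and 0 of the 7 tested reached an unadjusted p of 0.05. The 6 markers of monocytes and other macrophages summed to 109 to 243 CPM and 76.7 to 281 CPM, and 2 of the 5 tested reached that p. Of these 5, 4 had negative log2 fold changes, with a median of -0.69. Spp1, at 62.6 to 238 CPM over the 9 libraries, had the highest level of the 6 and weighed most in that sum.

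Ferritin stores iron in a shell of heavy chains, which oxidise it, and light chains, which help it mineralise. Fth1, the heavy chain gene (ENSMUSG00000024661, chr19:9957962-9962462 on mm39), was at 935 CPM in M56, 985 in M58, 1022 in M59 and 1191 in M60, and at 1024 in M46, 895 in M47, 858 in M48, 911 in M49 and 814 in M50. The means were 1033 ± 111 (SD, n = 4) and 900.3 ± 78.7 (SD, n = 5). Of the formoterol livers, 4 lay below all vehicle livers, and M46 lay above 3 of them. Fth1 had a log2 fold change of -0.20 ± 0.15 (SE; edgeR adjusted p = 0.56).

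Ftl1, the light chain gene (ENSMUSG00000050708, chr7:45107368-45109308 on mm39), was at 1296 CPM in M56, 2023 in M58, 1959 in M59 and 2172 in M60, and at 1944 in M46, 1688 in M47, 1857 in M48, 1965 in M49 and 1862 in M50. The formoterol livers lay inside the vehicle range, whose low end was M56 alone. The means were 1863 ± 388 (SD, n = 4) and 1863 ± 109 (SD, n = 5), and the log2 fold change was 0.00057 ± 0.17 (SE; edgeR adjusted p = 0.999). Its sign depended on the scaling and on which library was left out, within -0.14 to 0.084. Ftl1 took 58.1% of the ferritin counts in M56 and 64.6% to 69.6% in the other 8 libraries. The log2 ratio of Ftl1 to Fth1 was 0.83 ± 0.25 (SD, n = 4) with vehicle and 1.05 ± 0.12 (SD, n = 5) with formoterol. The difference of 0.22 missed the threshold (exact permutation p = 0.0873, 0.349 adjusted over 4 ratios) and was 0.10 without M56.

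Iron regulatory proteins act on Tfrc messenger stability and on ferritin translation in opposite directions. Translation is not measured by read counts, so the log2 ratio of Tfrc to Fth1 counts describes messenger levels only. It was -5.82 ± 0.57 (SD, n = 4) with vehicle and -5.94 ± 0.17 (SD, n = 5) with formoterol. The difference of -0.12 was within the spread (exact permutation p = 0.659, 0.802 adjusted), and the vehicle livers M58 and M60 were the highest and the lowest of all 9. Without M58 the difference turned to 0.066, and without M60 it was -0.38. The smallest p that the 126 possible splits of 4 and 5 livers can give is 0.00794.

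Slc39a14 (ENSMUSG00000022094, chr14:70540918-70588874 on mm39) encodes ZIP14, a plasma membrane importer of zinc that also takes up iron not bound to transferrin. It was at 62.0 CPM in M56, 70.0 in M58, 61.4 in M59 and 80.8 in M60, and at 83.9 in M46, 78.8 in M47, 51.6 in M48, 72.4 in M49 and 59.9 in M50. The means were 68.6 ± 9.05 (SD, n = 4) with vehicle and 69.3 ± 13.4 (SD, n = 5) with formoterol, and the vehicle values lay inside the formoterol range. A log2 fold change of 0.016 ± 0.16 (SE; edgeR adjusted p = 0.98) was found, with a sign that turned under several settings, down to -0.13 with libraries scaled by their totals.

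Mt1 (ENSMUSG00000031765, chr8:94905710-94906955 on mm39) encodes a metallothionein, a small cysteine-rich protein that binds zinc and copper. It was at 18.2 CPM in M56, 15.9 in M58, 12.1 in M59 and 12.7 in M60, a mean of 14.7 ± 2.85 (SD, n = 4). With formoterol it was at 167 CPM in M46, 12.6 in M47, 9.79 in M48, 25.1 in M49 and 9.53 in M50, a mean of 44.8 ± 68.7 (SD, n = 5). M46 was 14.9-fold above the median of the other 4 formoterol livers (11.2 CPM), of which M47 lay inside the vehicle range, M48 and M50 below it and M49 above it. Over all libraries the log2 fold change was 1.602 ± 1.01 (SE; edgeR adjusted p = 0.52), while on the same 9 libraries limma-voom gave 0.55 and limma-voom with sample quality weights 0.16 (adjusted p = 0.71 and 0.85). Without M46 the edgeR value was -0.053 (adjusted p = 0.97), and the formoterol mean was 14.3 ± 7.36 CPM (SD, n = 4).

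Mt2, the other liver metallothionein gene (ENSMUSG00000031762, chr8:94899292-94900196 on mm39), was almost undetected, with 16 counts over the 9 libraries against 4053 for Mt1. The counts were 2 in M56, 0 in M58, 0 in M59 and 2 in M60, and 8 in M46, 0 in M47, 0 in M48, 4 in M49 and 0 in M50. In the 5 libraries at 0 a level of up to 0.146 to 0.247 CPM is possible, taking 3 counts as the limit that a count of 0 allows, for counting error only. The gene model Gm45774 overlaps Mt2 on the opposite strand and held 1 count. How reads shared by 2 genes were assigned is not known. Whether the low count reflects a low Mt2 level or lost reads was therefore not tested. Mt2 was too low for a test and gave no fold change. Its highest count was in M46, where Mt1 was also highest. The log2 ratio of Mt2 to Mt1 was -7.78 ± 1.17 (SD, n = 4) with vehicle and -7.96 ± 0.66 (SD, n = 5) with formoterol (difference -0.19, exact permutation p = 0.802, 0.802 adjusted), and in most libraries it rests on the 0.5 counts added to each gene. The Mt1 and Mt2 transcripts are 63.7% identical, with no identical stretch above 20 bases.

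**Figure D3:**
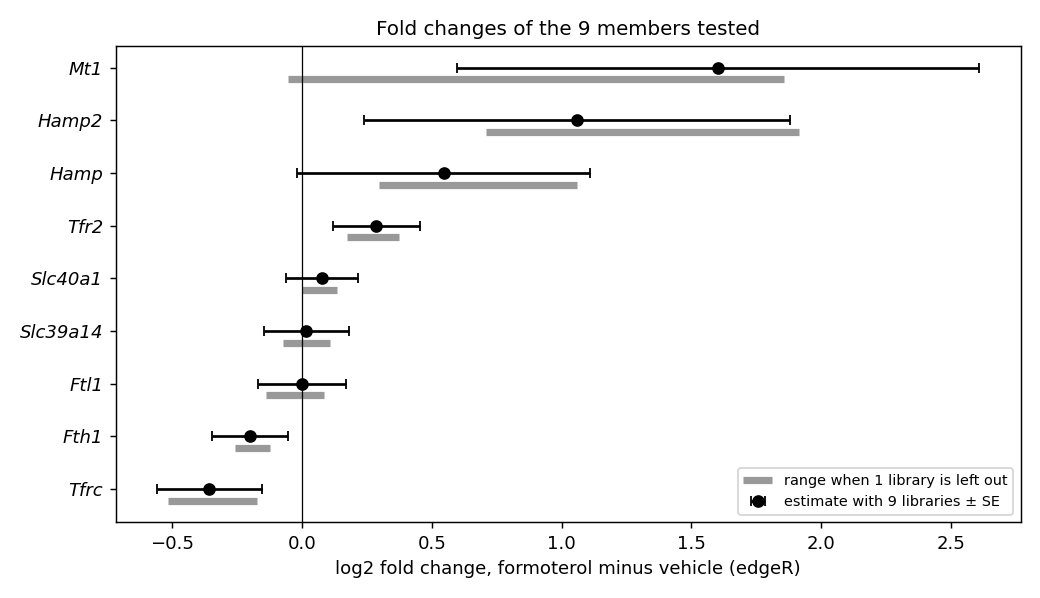
Log2 fold change, formoterol minus vehicle, of the 9 members tested; points and whiskers are the edgeR estimate and its standard error over 9 libraries, and grey bars span the estimates when 1 library at a time is left out. The grey bar of Mt1 runs from -0.053 to 1.86, and those of Hamp2, Hamp and Tfr2 stay above 0.

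M46, the liver with high Mt1, also stood at the top for genes of the acute-phase response, which interleukin-6 and STAT3 drive in hepatocytes. These genes were picked after their values were seen. Saa1 and Saa2, which encode serum amyloid A, were at 805 and 444 CPM in M46, and no other library passed 209 and 136 CPM. Hp, which encodes haptoglobin, the carrier of free haemoglobin, was at 10043 CPM in M46 and at most 4624 elsewhere. Lcn2, whose product binds bacterial iron carriers, was at 160 CPM in M46 and at 98.1 in the next library, the vehicle liver M56. Of 16 genes listed for interleukin-6 and STAT3 signalling, 9 had their highest level in M46 (56.2%), against 18.3% of all genes tested.

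The hepcidin genes did not share that position of M46. Hamp in M46 was the median of the 9 livers, and Hamp2 in M46 stood at 0.73 times its median. Slc39a14 was highest in M46, at 1.20 times its median. M46 also had the lowest summed level of sinusoidal endothelium markers (26.5 CPM for 6 genes, against 90.1 in M49, the highest) and of stellate cell markers (97.6 CPM for 5 genes, against 406 in M49). No gene of either list was at 0 in all libraries. The part of these differences in the Mt1 level was not tested.

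**Figure D4:**
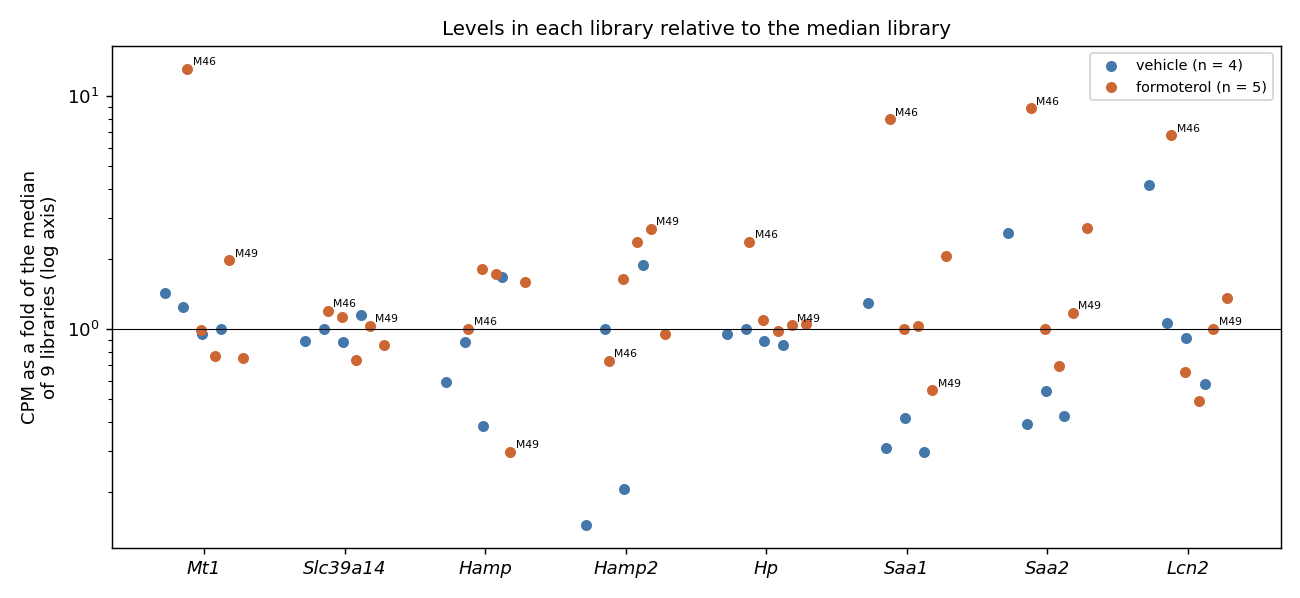
Level of 8 genes in each library as a fold of that gene's median over the 9 libraries, on a log axis; blue points are 4 vehicle and orange points 5 formoterol livers, with M46 and M49 named. M46 is at 13.1 times the median for Mt1 and 7.96 times for Saa1 but at 1 for Hamp, and M49 is lowest for Hamp and highest for Hamp2.

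Levels of different genes can be set side by side only per length, as CPM per kilobase of the gene length in the deposited table. That length need not be the length of the messenger. For Mt1 it was 1246 bases, the whole span of the gene, so the order of genes below is approximate. With vehicle, Ftl1 came first at 1390 ± 290 CPM per kilobase (SD, n = 4), followed by Hamp at 823 ± 526, Fth1 at 298 ± 31.9, Hamp2 at 67.6 ± 68.2 and Tfr2 at 38.0 ± 3.12. Mt1 followed at 11.8 ± 2.29, Slc40a1 at 8.60 ± 0.61, Slc39a14 at 6.50 ± 0.86, Tfrc at 3.05 ± 0.92 and Mt2 at 0.094 ± 0.11. The neighbours Ftl1 and Hamp, Hamp and Fth1, and Hamp2 and Tfr2 differed by less than the sum of their SDs. Per deposited gene length, the transferrin receptor level was mostly Tfr2, and the storage genes and Hamp far exceeded the transporters. Over the 9 livers the highest library was 18.7 times the lowest for Hamp2, 6.12 times for Hamp and 2.24 times for Tfrc. It was 1.77 times for Tfr2, 1.68 for Ftl1, 1.63 for Slc39a14, 1.46 for Fth1 and 1.45 for Slc40a1. For Mt1 it was 17.5 times with M46 and 2.63 times without it.

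For 4 members, the genes with the most similar log2 levels over the 9 libraries were looked up among 11788 genes with a symbol. For Hamp they were Hgd, S1pr5 and mt-Tl2, with Pearson r of 0.957, 0.948 and 0.942 (0.955, 0.917 and 0.913 without M49, the library where Hamp was farthest from its median). For Tfrc they were Jade3, Plk4 and Zfp961 (r of 0.903, 0.879 and 0.868), and for Slc39a14 they were Cirbp, Thap11 and Eef2 (r of 0.903, 0.885 and 0.883). For Mt1 they were Hp, Zfp189 and Mrps18a (r of 0.917, 0.916 and 0.906), and without M46 these values were 0.0979, 0.307 and 0.395. The likeness to Mt1 thus rested on 1 library. All these genes share the same 9 libraries, and the best of many candidates are high by selection.

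Around the members, 158 other genes of metal handling and its regulation were tested, in 9 lists. In edgeR 0 of 158 passed the adjusted threshold. At an unadjusted p under 0.05, 24 were higher and 5 lower with formoterol (18.4%, against 14.6% of all genes), and the median log2 fold change was 0.077 (-0.014 over all genes). The groups did not overlap for 5 genes that were higher and 2 that were lower, against 4.84% of all genes. With DESeq2, 3 of these genes passed an adjusted p of 0.05 (Fdx1 and Blvra higher, Ncoa4 lower), beside 306 genes in all. Without M49, 7 passed in edgeR (Fdx1, Id2, Ireb2, Spint2 and Tsc22d3 higher, Ncoa4 and Slc39a4 lower), beside 702 genes in all. The median log2 fold change of all genes was -0.16 when libraries were scaled by their totals, so the value of a single gene under that scaling is read relative to this shift.

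**Figure D5:**
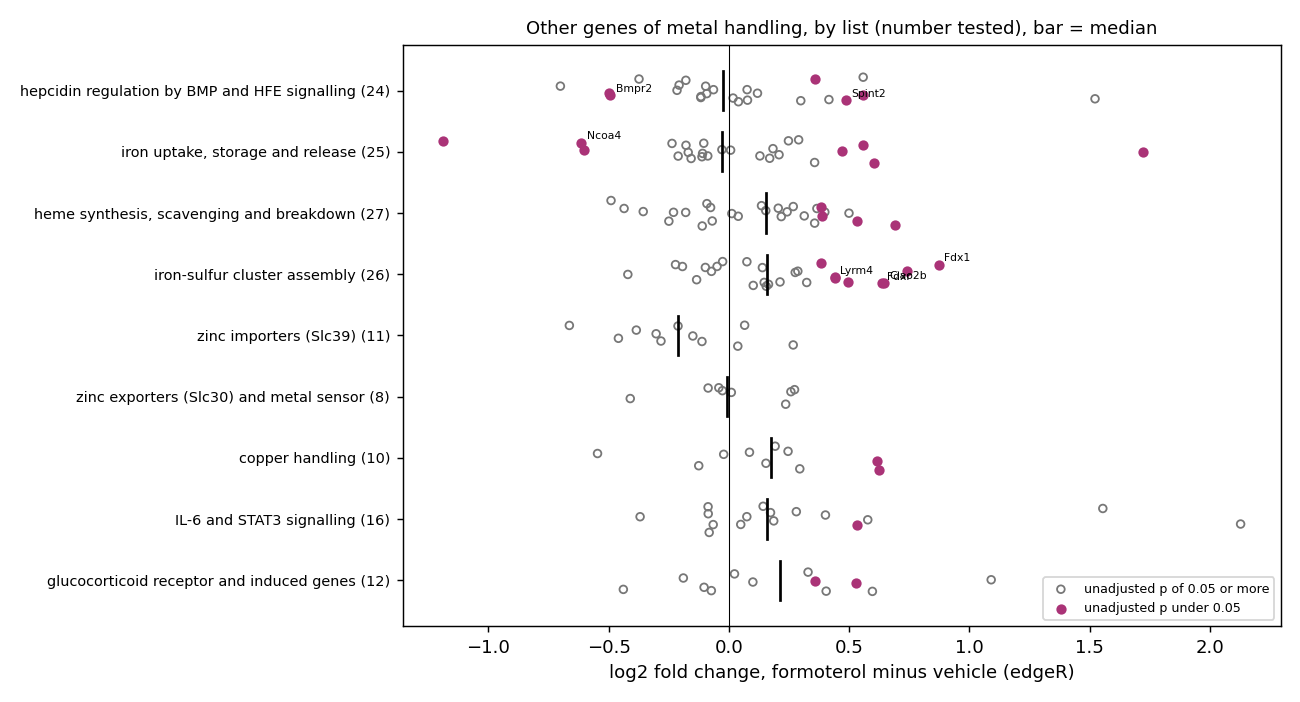
Log2 fold change, formoterol minus vehicle, of 158 genes in 9 lists, with the number tested in brackets; each point is a gene, filled where its unadjusted edgeR p is under 0.05, the black bar is the list's median, and the 7 genes whose groups did not overlap are named. Filled points of iron-sulfur cluster assembly all lie to the right of 0, and no zinc transporter is filled.

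The signals that control hepcidin showed no common direction: of 24 genes tested, 12 had positive and 12 negative log2 fold changes, with a median of -0.023 and 0 past the adjusted threshold. Bmp6, the main iron-induced BMP ligand of the liver, was at 1.69 ± 1.01 CPM (SD, n = 4) and 1.83 ± 1.36 CPM (SD, n = 5), with a log2 fold change of 0.12 ± 0.58 (SE; edgeR adjusted p = 0.95). Hjv, which encodes the BMP co-receptor hemojuvelin, was at 97.5 ± 9.77 and 103 ± 15.1 CPM, and Tmprss6, whose protease removes hemojuvelin, at 166 ± 29.9 and 175 ± 14.4 CPM. Hfe was at 36.5 ± 3.27 and 33.6 ± 1.63 CPM. The edgeR adjusted p of these 3 genes lay between 0.717 and 0.860. The largest log2 fold change of the list was that of Fgl1, at 1.52 ± 0.67 (SE; edgeR adjusted p = 0.35, and 0.036 in limma-voom with sample quality weights). Fgl1 was at 2990 CPM in M46 and at 273 to 743 CPM in the other formoterol livers, against 224 to 511 CPM with vehicle.

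An unadjusted p under 0.05 was reached in that list by 3 of 24 genes with higher and 2 with lower levels, against 9.03% and 5.53% of all genes, and 2 had groups that did not overlap, against 4.84% of all genes. Spint2, an inhibitor of serine proteases that restrains TMPRSS6, was at 69.9 ± 4.74 and 98.0 ± 16.9 CPM, with every formoterol liver above every vehicle liver (log2 fold change 0.49 ± 0.15, SE; edgeR adjusted p = 0.19). Id2, a BMP target in liver, was at 89.6 ± 12.9 and 132 ± 41.7 CPM (log2 fold change 0.56, edgeR adjusted p = 0.26), and Smad1, a transducer of the BMP receptor, at 13.02 ± 1.44 and 16.7 ± 1.68 CPM (0.36, edgeR adjusted p = 0.31). Bmpr2, a type II BMP receptor, was at 25.6 ± 2.42 and 18.1 ± 4.56 CPM, with every formoterol liver below every vehicle liver but only by a narrow gap (22.7 in M50 and 23.0 in M59) (log2 fold change -0.49 ± 0.18, SE; edgeR adjusted p = 0.24). Smad5, another transducer, was at 9.88 ± 2.53 and 6.99 ± 1.18 CPM (-0.50, edgeR adjusted p = 0.30). Receptor, transducers and targets of the BMP route thus lay on both sides of 0.

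Among 25 other genes of iron uptake, storage and release, 12 log2 fold changes were positive and 13 negative, with a median of -0.029. Ncoa4 encodes the receptor that carries ferritin to the lysosome for breakdown. It was at 23.4 CPM in M56, 17.3 in M58, 20.99 in M59 and 16.5 in M60, and at 12.6 in M46, 12.5 in M47, 11.6 in M48, 13.6 in M49 and 13.6 in M50. Every formoterol liver lay below every vehicle liver, with means of 12.8 ± 0.84 (SD, n = 5) against 19.6 ± 3.23 CPM (SD, n = 4). Ncoa4 had a log2 fold change of -0.61 ± 0.16 (SE), with an edgeR adjusted p of 0.16, and the adjusted p was 0.025 in DESeq2 and 0.039 in edgeR without M49.

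The genes that sense cellular iron included Fbxl5, whose product marks iron regulatory protein 2 for degradation, at 19.3 ± 2.18 and 29.4 ± 8.42 CPM (log2 fold change 0.60, edgeR adjusted p = 0.21). Ireb2, which encodes iron regulatory protein 2, was close to constant in vehicle livers, at 66.9, 65.4, 67.0 and 68.5 CPM. With formoterol it spanned 54.5 CPM in M49 to 141 CPM in M46, with a log2 fold change of 0.56 ± 0.22 (SE; edgeR adjusted p = 0.27). Aco1, which encodes iron regulatory protein 1, was at 115 ± 9.55 and 126 ± 20.9 CPM (edgeR adjusted p = 0.75).

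Slc25a37, the mitochondrial iron importer mitoferrin-1, was at 43.2 ± 8.71 CPM with vehicle and 28.4 ± 8.26 CPM with formoterol (log2 fold change -0.60, edgeR adjusted p = 0.22). Heph, a ferroxidase that works beside ferroportin, was low, at 1.23 ± 0.52 and 0.54 ± 0.26 CPM (-1.19, edgeR adjusted p = 0.32). The plasma proteins and the iron importer Slc11a2 differed little. Trf, which encodes transferrin, was at 7550 ± 726 and 7000 ± 563 CPM, the ferroxidase Cp at 1375 ± 246 and 1293 ± 89.7 CPM, and Slc11a2 at 13.1 ± 1.27 and 11.3 ± 2.00 CPM, with edgeR adjusted p between 0.620 and 0.842.

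Among 26 genes of iron-sulfur cluster assembly, the mitochondrial and cytosolic machinery that builds these cofactors, 18 log2 fold changes were positive and 8 negative, with a median of 0.16. At an unadjusted p under 0.05, 8 were higher and 0 lower, against 9.03% and 5.53% of all genes. For Fdx1, Fdxr, Ciao2b and Lyrm4 every formoterol liver lay above every vehicle liver, while 4.84% of all genes did not overlap in either direction. Fdx1 encodes a mitochondrial ferredoxin, itself an iron-sulfur protein, that passes electrons to cytochrome P450 enzymes. It was at 41.5 CPM in M56, 66.4 in M58, 55.3 in M59 and 63.0 in M60, and at 141 in M46, 115 in M47, 119 in M48, 68.5 in M49 and 74.8 in M50. M49 lay just above the highest vehicle liver, M58. Fdx1 had a log2 fold change of 0.87 ± 0.22 (SE), with an edgeR adjusted p of 0.16 and a DESeq2 adjusted p of 0.016.

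Fdxr, the reductase that feeds Fdx1, was at 17.7 ± 3.36 and 27.5 ± 7.80 CPM (log2 fold change 0.64, edgeR adjusted p = 0.20), and Ciao2b, of the cytosolic targeting complex, at 5.97 ± 1.27 and 9.34 ± 1.23 CPM (0.64, edgeR adjusted p = 0.19). Of these 26 genes, 10 were highest in M46 (38.5%, against 18.3% of all genes). The summed hepatocyte markers, mostly Alb, were likewise higher in all formoterol livers, and their part in these values was not tested.

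In the heme list, 17 of 27 log2 fold changes were positive, with a median of 0.15, and 4 genes had an unadjusted p under 0.05 (14.8%, near the 14.6% of all genes). Blvra, the reductase that turns biliverdin into bilirubin, was at 10.6 ± 1.40 and 17.1 ± 3.62 CPM, overlapping only between M58 and M50 (log2 fold change 0.69 ± 0.19, SE; edgeR adjusted p = 0.17 and DESeq2 adjusted p = 0.040). The heme synthesis enzymes Alad and Urod had log2 fold changes of 0.53 and 0.39 (edgeR adjusted p = 0.25 and 0.32). Hmox1, the heme oxygenase that releases iron from heme, was at 12.8 ± 2.89 and 9.99 ± 2.62 CPM (log2 fold change -0.36 ± 0.22, SE; edgeR adjusted p = 0.49). Erythroid cells also make heme, and their 7 markers summed to 183 to 584 CPM with vehicle and 289 to 551 CPM with formoterol.

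With all 9 libraries, no zinc transporter reached an unadjusted p of 0.05 in edgeR. Of 11 other Slc39 importers tested, 3 log2 fold changes were positive and 8 negative, with a median of -0.21. Slc39a4, a zinc importer singled out here after its values were seen, was at 17.1 CPM in M56, 14.3 in M58, 13.8 in M59 and 12.8 in M60, and at 6.92 in M46, 9.71 in M47, 5.51 in M48, 27.5 in M49 and 5.41 in M50. Of the formoterol livers, 4 lay below every vehicle liver and M49 above all of them. The log2 fold change of Slc39a4 was -0.38 ± 0.45 (SE; edgeR adjusted p = 0.75), and without M49 it was -1.08 ± 0.21 (SE; edgeR adjusted p = 0.014, in a fit that called 702 genes). Of 8 genes for Slc30 exporters and the metal sensor, 4 were positive and 4 negative, with a median of -0.0083. Slc30a1, the plasma membrane zinc exporter that zinc induces together with Mt1, was at 17.3 ± 2.49 and 20.4 ± 1.42 CPM (log2 fold change 0.24 ± 0.15, SE; edgeR adjusted p = 0.50). Mtf1, the gene of the sensor, was at 6.83 ± 0.57 and 6.69 ± 1.98 CPM, Slc39a8, the closest relative of Slc39a14, at 14.5 ± 2.86 and 13.4 ± 3.87 CPM, and the manganese exporter Slc30a10 at 13.01 ± 1.501 and 12.6 ± 3.58 CPM. The edgeR adjusted p of these 3 lay between 0.859 and 0.972.

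Of 10 copper handling genes, 7 log2 fold changes were positive, against 48.7% of all genes, and 2 had an unadjusted p under 0.05 (20%, against 14.6% of all genes). The copper chaperones Ccs (112 ± 31.2 and 172 ± 42.8 CPM) and Atox1 (59.1 ± 19.8 and 91.0 ± 21.99 CPM) had log2 fold changes of 0.61 and 0.62 (edgeR adjusted p = 0.22 and 0.24). Among 16 genes of interleukin-6 and STAT3 signalling 11 were positive, and Fgb, which encodes a fibrinogen chain, was the 1 gene with an unadjusted p under 0.05 (6.25%, against 14.6% of all genes), at 1838 ± 146 and 2661 ± 873 CPM (log2 fold change 0.53, edgeR adjusted p = 0.28). Glucocorticoids also induce metallothioneins. Of 12 genes of that receptor and its targets 8 were positive, and 2 had an unadjusted p under 0.05 (16.7%, near the 14.6% of all genes). These 2 were Tsc22d3 at 51.3 ± 8.35 and 73.9 ± 13.5 CPM (0.53, edgeR adjusted p = 0.19) and the receptor gene Nr3c1 at 48.9 ± 4.98 and 62.6 ± 12.3 CPM (0.36, edgeR adjusted p = 0.32). The 4 negative genes were Per1 (-0.44), Fkbp5 (-0.19), Dusp1 (-0.10) and Tat (-0.073).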

How the data were processed

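Liver RNA was sequenced from 9 male mice, 5 given formoterol and 4 given vehicle. The authors deposited raw whole-number read counts per gene, per the file headers. HISAT2 2.0.5, DESeq2 and the build mm39 are named, per the submitters' processing notes. How reads were assigned to genes, with or without strand, and by which annotation is not given in the sources used here. Columns carry a code and a suffix and no replicate number. The suffix HF was read as formoterol and HD as vehicle, which matches the group sizes. No 2 libraries of a group agreed within sampling noise (chi-square per degree of freedom 24.69 to 235 over 16 pairs). No label ties a library to a cage or a batch, so a difference of either between the groups could not be told apart from treatment. The p-values set the group difference against the spread between these libraries.

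Counts entered edgeR 4.0.16 (R 4.3.3) with TMM factors, filterByExpr (minimum count 10, minimum total 15), robust glmQLFit and glmQLFTest on all 9 libraries. Benjamini-Hochberg adjustment ran over 13042 genes, with a threshold of 0.05. Alternatives used limma 3.58.1, DESeq2 1.42.0, other scalings, no filter, no mitochondrial genome counts, and each library left out. Ratios within a library added 0.5 counts and were compared by 2-sided exact permutation. On simulated counts for 13042 genes with 200 changed, in 10 runs, edgeR recovered 45.6% of 2-fold and 86.7% of 4-fold changes, and 5.35% of its calls were false. The members and lists were chosen with earlier results of these data known. Named genes are the members, up to 3 genes per list and direction with the smallest unadjusted p under 0.05, a fixed group of regulators, and for 4 members the 3 genes most alike. A gene that this rule would name is not reported here. Gene models on the opposite strand overlap Hamp, Hamp2, Fth1, Ftl1 and Mt2 and held at most 18 counts. Reads dropped as shared would be missing from both genes, so these low counts cannot show whether the members lost reads. Coordinates of sequences are from RefSeq on GRCm38.p6, a different build from that of the counts.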

Additional observations from a re-analysis of the deposited data

Results flagged for a closer look

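Within each group of 4 or 5 libraries, the highest and lowest values of the named genes and ratios were compared with their nearest neighbour. By Dixon's criterion, 7 of 98 groups had a library set apart from the others. For independent, normally distributed values chance alone sets apart about 1 in 20. These genes share the same libraries, and many were named by their values, so that rate is only approximate here. Among the members, Mt1 was at 167 CPM in the formoterol liver M46 (next highest 25.1), Tfr2 was at 144 CPM in the vehicle liver M59 (next lowest 171), and Hamp2 made up 53.6% of the counts of both hepcidin genes in the formoterol liver M49 (next highest 14.97%). Among the other genes, Spint2 was at 62.8 CPM in the vehicle liver M56 (next lowest 71.7) and Nr3c1 was at 56.4 CPM in the vehicle liver M58 (next highest 46.6). Hfe was at 30.8 CPM in the formoterol liver M49 (next lowest 33.9), and Trf was at 6462 CPM in the vehicle liver M58 (next lowest 7868).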

How the results depend on the processing

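Of 16 alternatives, 11 called 0 genes of any kind, so their 0 members says nothing about stability. Of the others, 4 called genes but 0 members, and 1 member (Hamp2) was called by limma-voom with sample quality weights. At an unadjusted p under 0.05 there were 0 members in edgeR, 1 with library totals (Tfrc), 1 with limma-voom (Hamp2), 3 with quality weights (Hamp, Hamp2 and Tfr2) and 0 to 2 with 1 library left out. Of the 158 other genes 0 passed in edgeR, 3 with DESeq2, 18 with quality weights, 1 without the filter on low counts (Fdx1) and 0 to 7 with 1 library left out, the 7 being without M49. Their number at an unadjusted p under 0.05 was 29, but 18 with library totals or without M56, M59 or M46, 19 without M47 or M48, and 52 with quality weights. No paired analysis was possible because the columns carry no replicate numbers. Small log2 fold changes turned sign. With library totals these were Ftl1 at -0.14, Slc40a1 at -0.075, Slc39a14 at -0.13, Bmp6 at -0.024, Hjv at -0.078, Tmprss6 at -0.085 and Aco1 at -0.035. With upper-quartile factors Ftl1 was at -0.039 and Slc39a14 at -0.028. Ftl1 was at -0.0086 without mitochondrial genome counts, -0.040 with quality weights and -0.0020 without the filter, and Bmp6 at -0.017 with limma-voom. With 1 library left out, the values ran from -0.14 to 0.084 for Ftl1, -0.072 to 0.11 for Slc39a14, -0.053 to 1.86 for Mt1, -0.28 to 0.55 for Bmp6, -0.015 to 0.13 for Hjv, -0.0091 to 0.20 for Tmprss6, -0.16 to 0.034 for Cp, -0.26 to 0.024 for Slc39a8, -0.20 to 0.041 for Slc30a10 and -0.22 to 0.062 for Mtf1. The ratio differences ran from -0.58 to 0.21 for Mt2 to Mt1 and from -0.38 to 0.066 for Tfrc to Fth1. Apart from Mt1 without M46, the cause of these turns was not tested. With 4 and 5 livers, edgeR recovered 45.6% of simulated 2-fold changes, set in genes drawn at random from all genes tested. That rate is an average over such genes and was not computed for single members. The edgeR standard errors were 0.14 for Slc40a1, 0.15 for Fth1, 0.16 for Slc39a14, 0.17 for Ftl1 and Tfr2 and 0.20 for Tfrc. A 2-fold change, a log2 fold change of 1, is several times these, but smaller differences in these members could go undetected. For Hamp, Hamp2 and Mt1, with edgeR standard errors of 0.57, 0.82 and 1.01, differences of 2-fold and more could too. Mt2 was limited by its 16 counts.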
